A study of Homo sapiens with 6 samples.

Results

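FAK (PTK2), its relative PYK2 (PTK2B), the kinase SRC, the scaffold p130Cas (BCAR1) and the adaptors CRK, CRKL, paxillin (PXN), talin (TLN1), vinculin (VCL) and zyxin (ZYX) form the signalling core of focal adhesions. These 10 genes, of the 20499 genes named on the array, were chosen from their place in that pathway, with earlier results of these data known. Every probe whose transcript identifier belongs to one of them was kept as a probe of its own, which gave 12 probes of 50599. BCAR1 and PXN have 2 probes each and the other genes 1. A focal adhesion is the site where a clustered integrin is tied to actin. Talin opens the integrin, vinculin braces talin against actin, and FAK binds there, phosphorylates itself and docks SRC. SRC then phosphorylates p130Cas and paxillin, and CRK or CRKL read those phosphotyrosines and pass the signal to RAC1 and RAP1. The LOX propeptide has been linked to reduced FAK activation in breast cancer cells, which concerns phosphorylation of the protein, whereas the arrays measure mRNA.

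The arrays held RNA of A673, an Ewing sarcoma cell line that carries the EWS/FLI1 fusion, and TR marks the tetracycline repressor that all cells here express. There were 3 arrays of A673/TR/empty cells, infected with the lentiviral vector without an insert, and 3 arrays of A673/TR/LOX-PP cells, infected with a doxycycline-inducible cDNA of the LOX propeptide carrying a V5 tag and collected after 72 h of doxycycline. The labels give doxycycline (1 µM, 72 h) for all 6 samples, although the study describes it clearly for A673/TR/LOX-PP alone, so the treatment of the controls is not settled. Both lines were infected separately and stable clones were selected with zeocin, so a difference between the lines and an effect of the propeptide cannot be told apart. Which clone was hybridised is not given in the sources used here. The replicates are described as separate experiments.

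Values below are log2 signals over the 75th percentile of the same array, one value per probe and array, and they compare arrays for one probe, not one probe with another. Between 56.9% and 74.8% of the gene spots of an array were well above background, no gene spot was saturated, and the negative control spots read from 31.8 to 514 above their local background. Replicate 1 of LOX-PP was on slide 2 and the other arrays shared slide 1. Replicate 1 of LOX-PP also had its own extraction time, and its header gave no genome build where the others gave hg19. The 75th percentile of the spot intensity was 4141, 9578 and 5278 on replicates 1, 2 and 3 of LOX-PP. On the controls it was 12190, 10130 and 9941. The part of these array differences in the results below was not tested. The single LOX probe read -0.09, 0.36 and 0.11 on the control arrays, against -0.12, -0.68 and -1.29 with LOX-PP (adjusted p = 0.216, limma), so it was not higher where the propeptide was to be induced. Whether this probe lies within the cloned propeptide sequence is not stated, so it checks the labels poorly. A LOX-PP array is therefore one that its label calls A673/TR/LOX-PP. All 8 of 8 Ewing sarcoma marker genes (CD99, NKX2-2, NR0B1, STEAP1, PRKCB, CCND1, BCL11B and LIPI) were well above background on all arrays. The log2 of their summed signals, with the highest probe of each gene on each array, ran from 7.39 to 7.55 on the control arrays. On the LOX-PP arrays it ran from 7.63 to 7.88, and the brightest genes weigh most in it. Of 10 marker genes of blood, endothelial, epithelial and fibroblast cells, 6 had a probe above background on all arrays and the keratin KRT5 on no array. The same measure for these 10 genes ran from 0.54 to 1.07 on the control and from 0.16 to 1.43 on the LOX-PP arrays. Among the 10 tested probes of these genes, the fibroblast proteoglycan LUM fell by 2.42 relative to all probes (adjusted p = 0.0191, limma), with 2 control arrays and 1 LOX-PP array above background. Adjusted p-values of limma, here and below, test the difference before the median of all tested probes is taken off. DCN, also a fibroblast proteoglycan, overlapped on both tested probes (-0.80 and -0.12). The endothelial PECAM1 was at 1.23 and 2.00 on its tested probes, with groups that did not overlap, and did not pass (adjusted p = 0.0953 and 0.230, limma). The first of these probes was above background on 2 control and 3 LOX-PP arrays, the second on 1 and 2. CDH5, also endothelial, was at -0.05 with overlapping groups (adjusted p = 0.879, limma). The part of these markers in the results below was not tested, and in bulk RNA fewer cells of a type and less RNA per cell cannot be told apart.

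All 12 probes were well above background on all 6 arrays, so no member was lost to the filter on dim probes. No member probe passed an adjusted p of 0.05 (0 of 12, limma with Benjamini-Hochberg adjustment over 32609 probes), and the methods' t-test called 0 as well. Over all tested probes 5.67% passed. At 12 probes a count of 0 lies near that background. An unadjusted p under 0.05 was found for 3 of the 12, PTK2, TLN1 and VCL, and for 21.3% of all tested probes. The control and LOX-PP arrays did not overlap for 4 of the 12 member probes, 2 higher (16.1% of all tested probes were) and 2 lower (13.4%). Together these 4 compare with 29.5% of all tested probes, which is again near the background. The smallest difference that passed the threshold anywhere on the array was 0.88 on the log2 scale, more than that of any member. Precision is limited by having 3 arrays in each group, so a count of 0 does not show that no member changed. The median difference of all tested probes was 0.13, compared with -0.03 under quantile normalization, so differences are also given relative to it. The plot of member values by array shows these 12 probes.

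**Figure D1:**
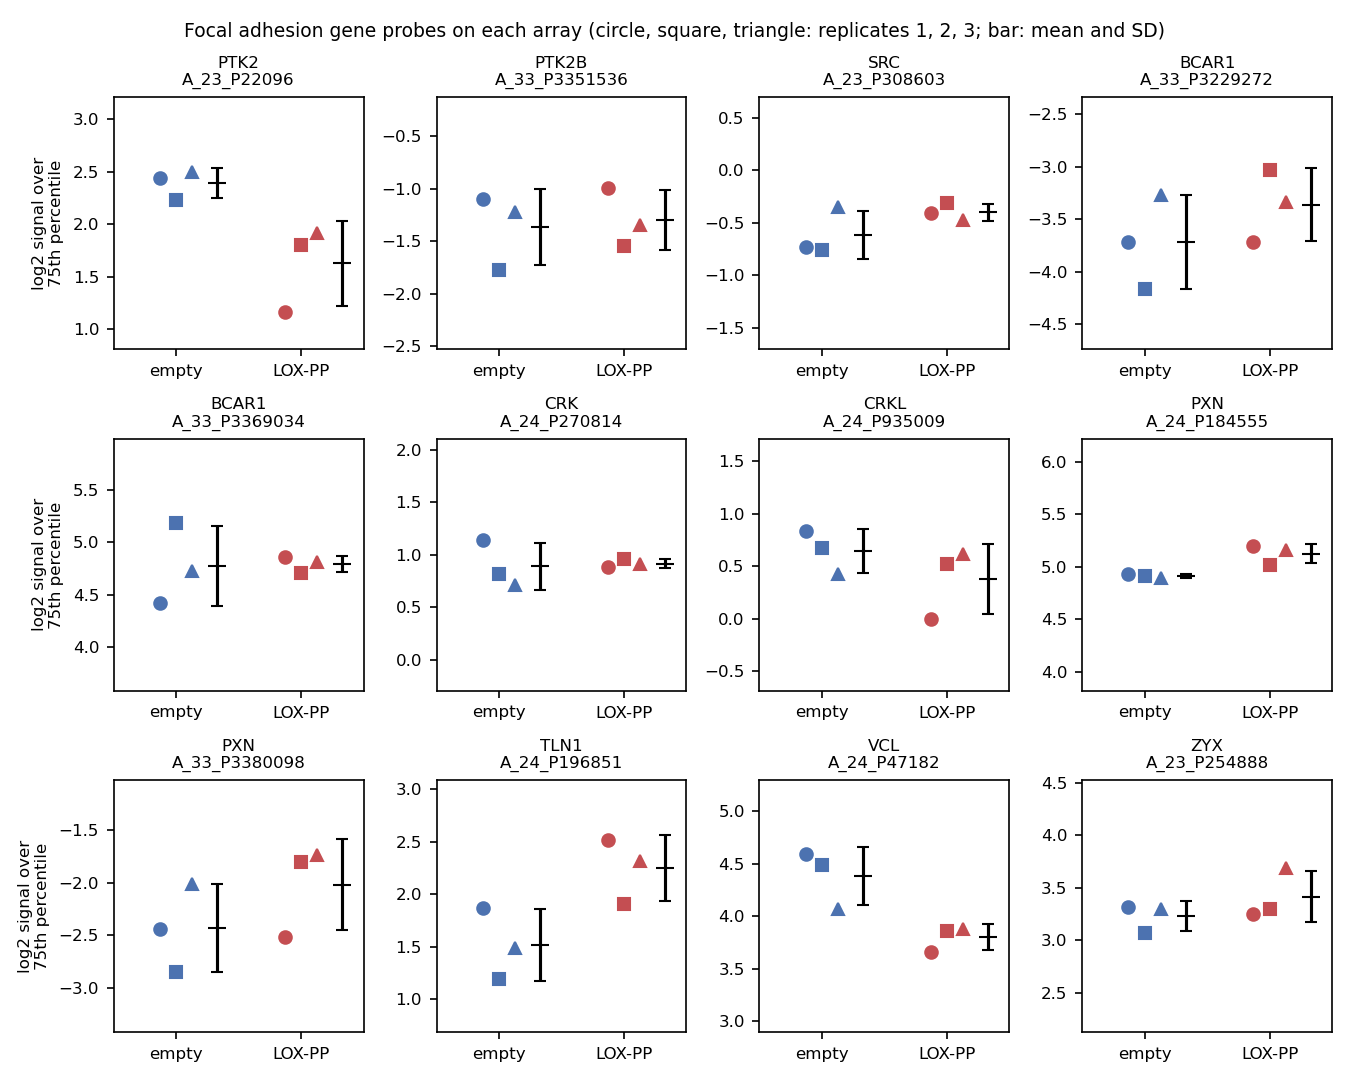
Each panel plots 1 probe, with the log2 signal over the 75th percentile of the array on the y axis (a span of equal height in all panels) against the A673/TR/empty and A673/TR/LOX-PP groups. Points are single arrays and bars are mean and SD (n = 3); PTK2 and VCL sit lower on all LOX-PP arrays, TLN1 and 1 PXN probe higher, and the other 8 probes overlap.

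The kinases were measured by 1 probe each. PTK2, which encodes FAK (probe A_23_P22096), read 2.44, 2.23 and 2.50 on the control arrays, against 1.16, 1.80 and 1.92 with LOX-PP. All LOX-PP arrays were therefore below all controls, by a gap of 0.31, with replicate 1 of LOX-PP the lowest. The group means were 2.39 ± 0.14 and 1.63 ± 0.41 (SD, n = 3), a difference of -0.76 with a 95% interval from -1.39 to -0.13 (adjusted p = 0.164, limma), or -0.89 relative to all probes. Without replicate 1 of LOX-PP, the array on slide 2, the difference was -0.53. PTK2 and PTK2B lie on chromosome 8, where the median of 720 probes was -0.39 relative to all probes, and the tenth of probes with signals like that of PTK2 had a median of -0.25. Their part in the PTK2 value was not tested.

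PTK2B, the calcium-responsive relative of FAK (probe A_33_P3351536), read -1.10, -1.78 and -1.22 on the control arrays, against -0.99, -1.55 and -1.35 with LOX-PP. The groups overlapped, with a difference of 0.07 and a 95% interval from -0.59 to 0.72 (adjusted p = 0.917, limma), and the sign turned under quantile normalization (-0.10). SRC, the tyrosine kinase that FAK docks (probe A_23_P308603), read -0.73, -0.76 and -0.35 on the control arrays, against -0.41, -0.31 and -0.47 with LOX-PP. Replicate 3 of the controls lay among the LOX-PP arrays, and the difference was 0.22 with an interval from -0.30 to 0.73 (adjusted p = 0.614, limma). The SRC probe was printed 10 times on each array, and the SD between its spots was 0.04 to 0.09, compared with an SD of 0.23 between the control arrays and 0.08 between the LOX-PP arrays.

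p130Cas, the scaffold that SRC phosphorylates, had 2 probes. One BCAR1 probe (A_33_P3369034) read 4.42, 5.18 and 4.73 on the control arrays, against 4.86, 4.71 and 4.81 with LOX-PP. The LOX-PP arrays lay inside the range of the controls, with a difference of 0.02 and an interval from -0.59 to 0.62 (adjusted p = 0.980, limma). Under quantile normalization the difference was -0.02. The other BCAR1 probe (A_33_P3229272) read -3.72, -4.17 and -3.27 against -3.72, -3.03 and -3.34. Its difference of 0.36 (interval from -0.39 to 1.10, adjusted p = 0.563, limma) turned to -0.03 under quantile normalization, so the BCAR1 probes gave no common direction across scalings.

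CRK, which binds phosphorylated p130Cas through its SH2 domain, read 1.14, 0.82 and 0.71 on the control arrays, against 0.88, 0.96 and 0.91 with LOX-PP. The difference was 0.03 with an interval from -0.48 to 0.54 (adjusted p = 0.958, limma), and without replicate 3 of the controls it was -0.06. Its close relative CRKL read 0.84, 0.67 and 0.43 against 0.00, 0.52 and 0.62, so that 1 LOX-PP array stood below the others. The difference of -0.26 (interval from -0.87 to 0.34, adjusted p = 0.606, limma) rested on that array, replicate 1 of LOX-PP, and was -0.07 without it.

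Paxillin, the adaptor that holds FAK and vinculin in the adhesion, had a probe with close replicates and a probe with wide ones. The first (A_24_P184555) read 4.93, 4.91 and 4.89 on the control arrays, against 5.20, 5.02 and 5.16 with LOX-PP. All LOX-PP arrays were above all controls, by a gap of 0.09, and the SD of the controls was 0.02. The difference was 0.22 with an interval from -0.24 to 0.68 (adjusted p = 0.566, limma), or 0.09 relative to all probes. The second (A_33_P3380098) read -2.44, -2.85 and -2.01 against -2.52, -1.80 and -1.74, with overlapping groups and a difference of 0.41 (adjusted p = 0.517, limma). That difference was 0.66 without replicate 1 of LOX-PP and 0.15 under quantile normalization. Both PXN probes were higher in the mean, with intervals that held 0.

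Among the proteins that carry force from integrin to actin, talin and vinculin had differences of opposite sign. TLN1 (talin, probe A_24_P196851) read 1.87, 1.19 and 1.49 on the control arrays, against 2.52, 1.91 and 2.32 with LOX-PP. The lowest LOX-PP array was above the highest control by 0.04. The difference was 0.73 with an interval from 0.08 to 1.39 (adjusted p = 0.188, limma), or 0.61 relative to all probes, and leaving out 1 array gave 0.57 to 0.91. Relative to all probes, the tenth of probes with signals like that of TLN1 had a median of -0.25, and the probes of chromosome 9 one of 0.08.

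VCL (vinculin, probe A_24_P47182) read 4.59, 4.49 and 4.07 on the control arrays, against 3.66, 3.86 and 3.88 with LOX-PP. The groups were apart by 0.19, with all LOX-PP arrays lower. The difference was -0.58 with an interval from -1.13 to -0.04 (adjusted p = 0.205, limma), or -0.71 relative to all probes, and leaving out 1 array gave -0.74 to -0.48. ZYX (zyxin), a LIM protein that gathers at adhesions and stress fibres under tension, read 3.32, 3.07 and 3.30 against 3.25, 3.30 and 3.69. The groups overlapped, with a difference of 0.18 (interval from -0.35 to 0.72, adjusted p = 0.686, limma) that was 0.04 without replicate 3 of LOX-PP.

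For TLN1 and VCL, whose groups were apart in opposite directions, the promoter is printed as the 250 bases before the RefSeq gene start in the sense direction. Capitals mark GGAA on either strand, the core letters that ETS factors such as FLI1 bind.
TLN1 (GRCh38.p14, chr9:35732196-35732445, minus strand): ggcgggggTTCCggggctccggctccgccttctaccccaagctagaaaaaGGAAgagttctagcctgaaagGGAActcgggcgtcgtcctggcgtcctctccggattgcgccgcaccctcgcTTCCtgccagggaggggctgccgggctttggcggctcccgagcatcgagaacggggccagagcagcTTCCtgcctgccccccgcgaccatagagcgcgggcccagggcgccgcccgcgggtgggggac
VCL (GRCh38.p14, chr10:73997866-73998115, plus strand): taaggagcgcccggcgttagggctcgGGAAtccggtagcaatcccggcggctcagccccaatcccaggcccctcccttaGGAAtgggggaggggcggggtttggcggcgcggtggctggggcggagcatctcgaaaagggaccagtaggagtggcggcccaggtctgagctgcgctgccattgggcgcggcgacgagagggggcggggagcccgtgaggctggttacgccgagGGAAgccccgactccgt
The TLN1 window held GGAA 5 times and the VCL window 3 times, and the median of all 35116 such windows was 3. In all, 12 windows of 7 member genes were searched on both strands. GGAA was found in 11 of the 12, compared with 92.7% of all windows. GGAATG, the core bound by TEAD factors, which contains GGAA, was found in 2 of the 12, the VCL window and 1 of PXN (11.9% of all windows). TGANTCA, the AP-1 core, was found in 1 BCAR1 window (6.57% of all), and the CArG box of serum response factor in 0 of the 12 (1.16% of all). A match says that the letters are there, not that a factor binds.

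**Figure D2:**
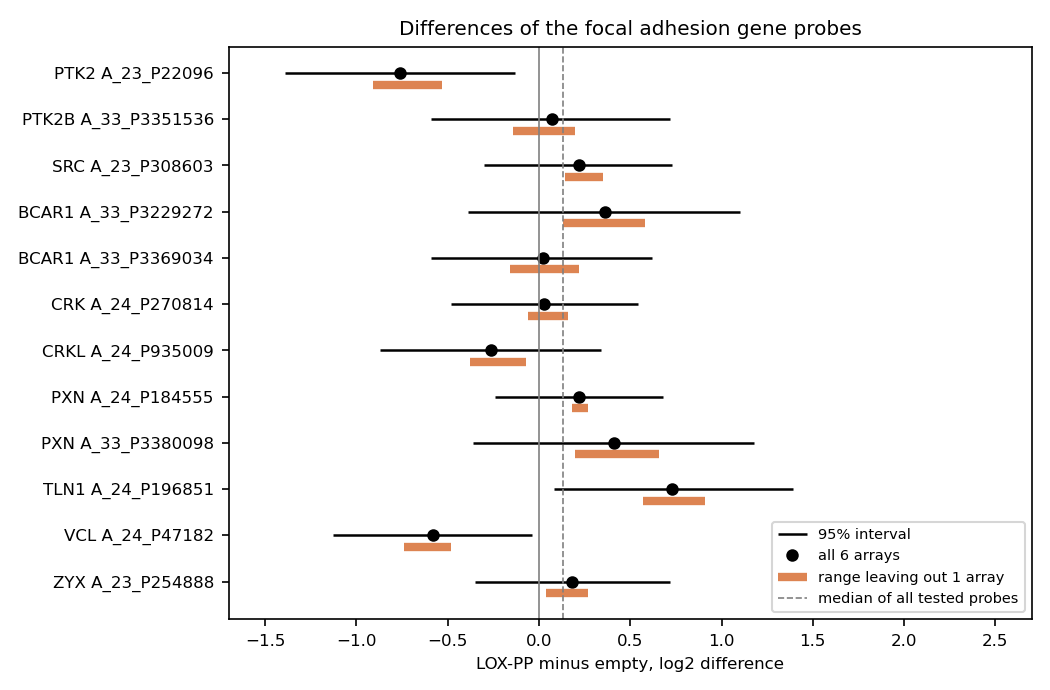
The x axis is the log2 difference, LOX-PP minus empty, of each of the 12 probes on the y axis; points are the fit on all 6 arrays, thin lines its 95% interval for that probe alone, thick lines the range when 1 array is left out, and the dashed line the median of all tested probes (0.13). The intervals of PTK2 and VCL lie below 0 and that of TLN1 above 0, before any adjustment over the 32609 probes, and the other 9 intervals cross 0.

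Because a shift of a whole array adds the same amount to each of its probes, the difference between a pair of probes within an array does not depend on the percentile that was subtracted. There are 66 pairs of member probes, and for 20 of them (30.3%) the within-array differences of the groups did not overlap. Over all pairs of tested probes with a value on every array the share was 30.2%, so the count of member pairs is at the background. The widest shift was that of TLN1 against PTK2. TLN1 minus PTK2 was -0.57, -1.04 and -1.02 on the control arrays, against 1.36, 0.11 and 0.40 with LOX-PP, a shift of 1.49 from -0.87 ± 0.26 to 0.62 ± 0.65 (SD, n = 3). TLN1 minus VCL was -2.73, -3.29 and -2.59 against -1.14, -1.95 and -1.56, a shift of 1.32. The pairs were ranked by these values, so they are a description without a test. They do not say which gene of a pair moved.

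**Figure D3:**
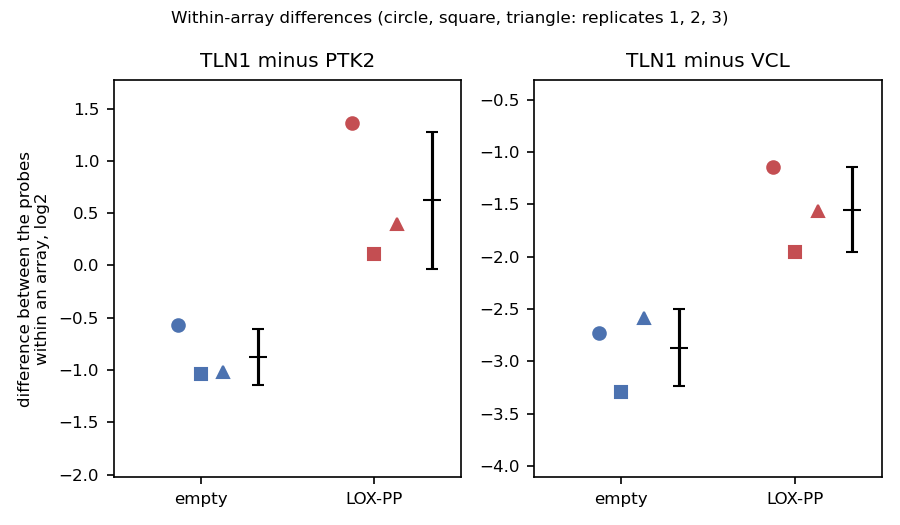
Each panel plots, for each array, the log2 signal of TLN1 minus that of PTK2 (left) or VCL (right) on the y axis, by group; bars are mean and SD (n = 3). In both panels all LOX-PP arrays lie above all control arrays, and replicate 1 of LOX-PP, on slide 2, lies highest.

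The other genes of the pathway were taken from 7 lists of focal adhesion genes, 95 genes without the members, with 135 probes of which 124 were tested. Of these, 15 of 124 tested probes passed the threshold, 11 lower and 4 higher on the LOX-PP arrays. That is 12.1%, compared with 5.67% of all tested probes, with 8.87% lower against 2.36% and 3.23% higher against 3.31%. The lists were chosen with earlier results of these data known, so these shares are a description without a test. The median difference of the 124 was -0.22 relative to all probes. By list, 5.88% passed in the paxillin and GIT/PIX list and among the SH2 and SH3 adaptors, and 7.14% in the zyxin list. These lie near the 5.67% of all tested probes. The share was 13.0% in the talin and vinculin list and 18.2% among FAK relatives and regulators. In the Cas list it was 19.0%, and among Src family kinases 28.6%, of 7 tested probes. The 15 probes belong to 14 genes, named below with the difference relative to all probes and the limma adjusted p. That p tests the difference before the median of 0.13 is taken off, not the relative value beside it. The count depends on single arrays, as it was 4 and 5 without replicates 1 and 2 of the controls, 9 and 10 without replicates 2 and 3 of LOX-PP, and 1 in the methods' t-test. With no filter on dim probes it was 4.

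**Figure D4:**
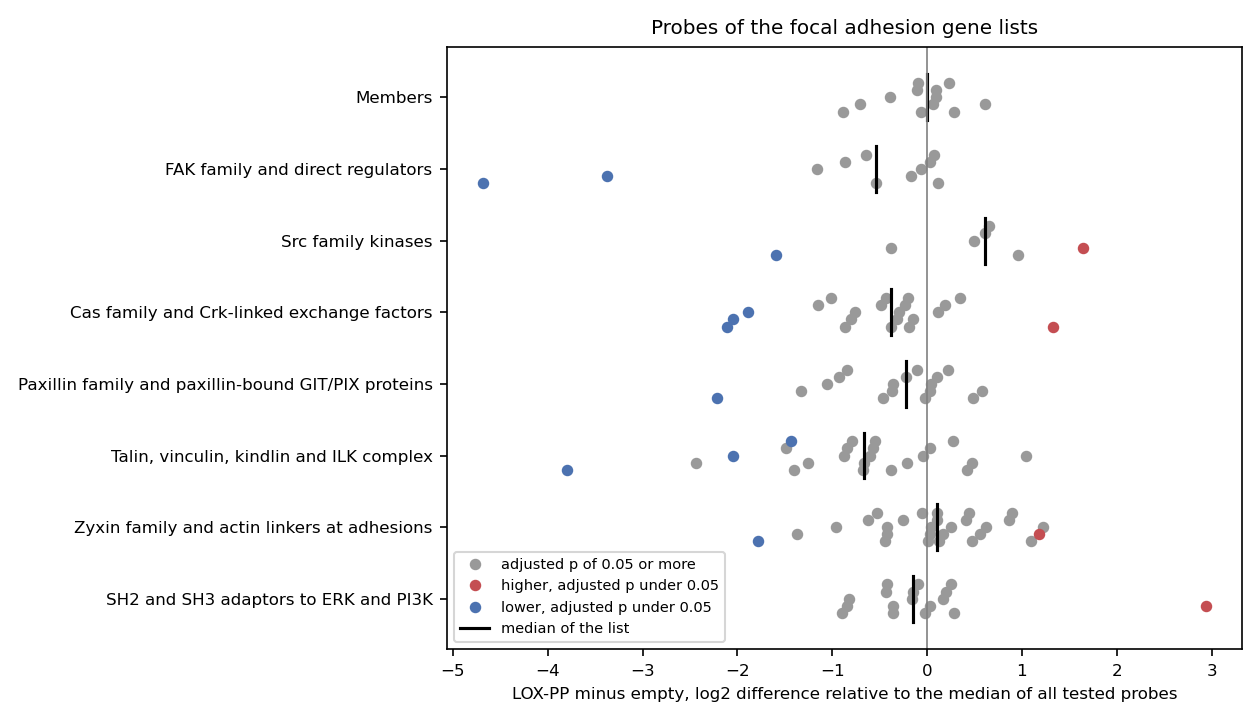
The x axis is the log2 difference, LOX-PP minus empty, relative to the median of all tested probes; each point is 1 tested probe of the list on the y axis (members apart, in the top line), black lines are list medians, and colours mark an adjusted p under 0.05. The 12 member probes lie between -0.89 and 0.61, whereas the coloured probes reach from -4.68 (PAG1) to 2.94 (SHC2).

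The widest difference among the 124 probes belonged to PAG1, a membrane adaptor that brings the inhibitory kinase CSK to Src family kinases. Its probe A_32_P61684 read 0.09, 0.27 and -0.06 on the control arrays, against -3.73, -5.52 and -4.12 with LOX-PP. It fell by 4.68 (adjusted p = 0.00361) and the other PAG1 probe by 3.38 (adjusted p = 0.00525), each with 2 of 3 LOX-PP arrays above background. Before the median is taken off, the first differed by -4.55, compared with -3.79 with a common floor and -3.33 with normexp. They were the 2 probes that passed among 11 tested probes of relatives and direct regulators of FAK. Of the Src family kinases (7 tested probes), LYN fell by 1.59 (adjusted p = 0.0197), reading 3.40, 3.29 and 3.53 against 1.58, 2.03 and 2.21. FRK, a Src-related kinase, rose by 1.64 (adjusted p = 0.0131), reading -2.00, -2.21 and -1.60 against 0.10, -0.25 and -0.37. PAG1, LYN and DOCK5 below lie on chromosome 8, like PTK2.

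Of the Cas family and the exchange factors linked to CRK (21 tested probes), 3 were lower and 1 higher. NEDD9, the Cas relative that also binds FAK, fell by 2.11 on 1 probe (adjusted p = 0.0262), which read -1.52, -1.50 and -2.60 against -4.09, -3.57 and -3.90. The call was kept in 6 of 16 alternatives and lost, among others, with a common floor (adjusted p = 0.0597, limma), and the other NEDD9 probe, at -1.01, did not pass (adjusted p = 0.206). SH2D3A and SH2D3C, adaptors that bind Cas proteins, went opposite ways, with -1.89 (adjusted p = 0.0156) and 1.33 (adjusted p = 0.0418). The SH2D3C call was kept in 6 of 16 alternatives and lost, among others, under quantile normalization (adjusted p = 0.0954, limma). DOCK5, an exchange factor for RAC1, fell by 2.05 on a probe above background on 2 control arrays and 1 LOX-PP array (adjusted p = 0.0240). With a common floor under all arrays its difference was 0, and its other probe was at -0.49 (adjusted p = 0.641).

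ARHGAP26, a GTPase-activating protein that binds FAK, fell by 2.22 (adjusted p = 0.0108) among 17 tested probes of the paxillin and GIT/PIX list. It read 0.62, 0.93 and 0.00 on the control arrays, against -1.48, -1.52 and -1.72 with LOX-PP. In the list of talin, vinculin, kindlin and ILK complex genes (23 tested probes) 3 were lower and 0 higher, with a list median of -0.67. PARVG, a parvin of the ILK complex, read -1.24, -1.16 and -1.23 against -5.78, -4.36 and -4.50 and fell by 3.80 (adjusted p = 0.00428). With 1 of 3 LOX-PP arrays above background the size of this fall depends on the treatment of dim signal: before the median is taken off, the difference was -3.67, compared with -2.49 with a common floor and -2.66 with normexp background correction. PARVA, the widely expressed parvin, fell by 1.43 (adjusted p = 0.0337), and FERMT1 (kindlin-1), which activates integrins together with talin, by 2.05 (adjusted p = 0.0203). The FERMT1 difference before the median is taken off was -1.92, compared with -1.32 with normexp, and its second probe was above background on 0 of 6 arrays and not tested.

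Among the zyxin family and actin linkers (28 tested probes) 1 was lower and 1 higher, or 7.14%, near the 5.67% of all tested probes. ENAH, an actin-elongating protein that zyxin recruits, fell by 1.78 on 1 probe (adjusted p = 0.0136) while the other, at -0.44, did not pass (adjusted p = 0.558). PDLIM5, a PDZ and LIM domain protein, rose by 1.18 on 1 of its 3 probes (adjusted p = 0.0246), and the others were at -0.25 and 0.62 without passing. Among the SH2 and SH3 adaptors that lead to ERK and PI3K (17 tested probes) SHC2 passed alone. It read -4.02, -4.28 and -4.01 on the control arrays, against -1.06, -0.90 and -1.15 with LOX-PP, and rose by 2.94 (adjusted p = 0.000934), with 2 of 3 control arrays above background. Before the median is taken off, the SHC2 difference was 3.07, compared with 2.66 with a common floor and 2.39 with normexp. SHC2 passed under all alternatives in which it was tested, and PAG1 and PARVG under all but the methods' t-test. DOCK5 kept its call in 7 of 15 alternatives. LYN, PARVA and PDLIM5 kept theirs in 9 of 16, SH2D3A in 10, ENAH, FERMT1 and FRK in 11 and ARHGAP26 in 12.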

How the data were processed

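RNA of 3 A673/TR/empty and 3 A673/TR/LOX-PP samples was hybridised to Agilent arrays in 1 colour (Cy3). The authors deposited the spot intensity written by Agilent Feature Extraction (version 10.7 in the submitters' processing notes), background-corrected by it, along with their own processed log2 table. Once centred probe by probe, the values computed here lay within 0.02 of the deposited log2 values for 50537 of 50599 probes.

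Control spots and spots marked as outliers (213 to 353 per array) were not used. The remaining deposited intensity was put on the log2 scale, repeated spots of 1 probe were averaged, and each array was scaled by its own 75th percentile. Probes well above background on at least 3 arrays (32609) were tested with limma (version 3.58.1, R 4.3.3) in 1 fit over all of them, 2-sided, with Benjamini-Hochberg adjustment, and 95% intervals come from the same fit. The fit was tested on simulated arrays in which 200 of the 32609 probes were changed. It recovered 0 of these 200 at a log2 change of 1, 67% at 2 and 92.5% at 3, with 10 and 17 wrong calls at 2 and 3. The adjusted p depends on how many probes change. In the data 1848 probes passed, with differences down to 0.88, so these shares do not carry over to the data. Probes were named through the accession in a RefSeq table of GRCh38.p14, a later build than hg19 of the array design (28170 probes of 1 gene, 22429 not named here), so no gene coordinates are given other than those of the RefSeq promoter windows.

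All member genes are named, with LOX, and of the other pathway genes those with a probe past the threshold. The members and lists were chosen with earlier results of these data known. Other settings tried were scaling by quantiles or by the median of bright probes, the processed values of the authors, normexp (offset 50) on the median spot signal, a common floor, no filter or a filter on all 6 arrays, the slide and the replicate number as blocks, the methods' t-test, and leaving out each array.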

Additional observations from a re-analysis of the deposited data

How the results depend on the processing

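The count of 0 member probes past the threshold was 0 under each of the 16 alternatives. Among the members, the sign of the difference turned for BCAR1, CRK and PTK2B probes alone. Leaving out 1 array gave -0.16 to 0.22 for the BCAR1 probe A_33_P3369034, -0.06 to 0.16 for CRK and -0.14 to 0.20 for PTK2B. For the BCAR1 probe A_33_P3369034 it was -0.02 under quantile normalization and with the slide as a block, -0.03 with normexp, -0.16 and -0.0083 without replicates 1 and 3 of the controls, and -0.02 without replicate 1 of LOX-PP. The other BCAR1 probe was at -0.03 under quantile normalization. PTK2B was at -0.10 under quantile normalization, -0.09 with the slide as a block and without replicate 1 of LOX-PP, and -0.14 without replicate 2 of the controls. CRK was at -0.0069 and -0.06 without replicates 2 and 3 of the controls. Of the 15 other pathway probes, 13 were also called under quantile normalization. The pathway count moved from 15 to 4 with no filter on dim probes, 7 with a replicate block, 1 in the methods' t-test, and 4 to 18 when 1 array was left out. All tested probes past the threshold numbered 1848, compared with 516, 893 and 569 under these alternatives, and 407 to 2067 when 1 array was left out. The slide block gave the differences found without replicate 1 of LOX-PP, the lone array of slide 2. Pairs of arrays of the same replicate number differed in sign (correlations of their deviations of 0.268, -0.388 and 0.227), so the number was not taken as a pairing, and the replicate block changed no call of a member. Causes of these changes were not tested. Naming probes by a gene name column was not run, since the files used here hold accessions alone.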

Other observations

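Some pathway genes with several probes did not pass the threshold although their groups did not overlap, and were picked out after their values were seen. Over all tested probes, called or not, 29.5% had groups that did not overlap. FHL2, a LIM protein of adhesions and the nucleus, was at 1.10 and 1.22 relative to all probes on its probes A_23_P108751 and A_33_P3362321 (adjusted p = 0.0534 and 0.0698, limma). The 3 probes of PDLIM7, a PDZ and LIM domain protein that binds actin filaments through tropomyosin, were at 0.86, 0.56 and 0.44 (adjusted p from 0.164 to 0.218, limma). RSU1, which binds PINCH in the ILK complex, was at -1.49 and -0.55 (adjusted p = 0.0613 and 0.376, limma). No cause was tested for these values.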
